A study of Mus musculus with 9 samples.

Results

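The expression of 28 genes of cholesterol and fatty acid synthesis was examined in cultured mouse cardiosphere-derived cells (CDCs). The genes were taken by symbol from a list of enzymes and regulators, and all 28 were found among the 54532 genes of the count table. They were arranged by role as 6 genes of the mevalonate and isoprenoid steps, 11 genes of the steps from squalene to cholesterol, 5 regulators and sterol carriers, and 6 genes of fatty acid synthesis.

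Cells make cholesterol from acetyl-CoA through mevalonate, isoprenoid diphosphates, squalene and lanosterol. The genes of this route are classical targets of the transcription factor SREBP-2, encoded by Srebf2, whereas SREBP-1, encoded by Srebf1, is best known for acting on genes of fatty acid synthesis. When membrane cholesterol is low, SCAP escorts the SREBP precursors from the endoplasmic reticulum to the Golgi, where proteases release the active factor, and when cholesterol is plentiful, INSIG proteins hold SCAP back. In the heart this route is known mainly as the target of statins, and fibroblast-like cells in culture draw cholesterol both from it and from serum lipoproteins.

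All cells came from heart ventricle explants of C57BL/6 mice. The study's methods describe the explants as fragments of epicardium peeled from the ventricles of adult hearts. The P0 libraries were of primary CDCs without treatment. The study's methods say that primary cells were used at passage 3, and whether this holds for these libraries is not stated. The P30 libraries were of CDCs immortalized with hTERT, the catalytic subunit of human telomerase (iCDCs), at passage 30 and without treatment. The SBT libraries were, by their labels, of iCDCs at passage 30 that received SB431542, an inhibitor of the type I receptor of TGF-β, for 3 days. The study's methods instead name an epithelial clone from primary cells as the cells that received SB431542, so in every comparison with SBT libraries the inhibitor and the origin of the cells cannot be told apart. The study's discussion describes such clones after a longer time than the 3 days of the labels, so the length of treatment is not settled either. The hTERT line was made by lentiviral transduction and puromycin selection, and hTERT, selection and passage cannot be told apart between P30 and P0. Each group had 3 libraries, with between 16568306 and 23951392 counted reads per library. The labels do not tie the 3 libraries of a group to separate cultures. The number of biological replicates in the study's methods is not that of the libraries, whereas its legends for sequenced primary and immortalized cells give n = 3. These legends do not say whether the 3 were separate cultures. The p-values therefore measure the spread between these libraries, which may be technical.

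In each of 2 groups 1 library stood apart. A chi-square statistic per degree of freedom over all genes, which is near 1 for libraries that differ by counting error only, was between 2.70 and 4.23 for pairs of P0 libraries. It was 4.61 for P30 replicates 1 and 2, but 30.8 and 24.9 for P30 replicate 3 against them. It was 3.79 for SBT replicates 1 and 3, but 71.5 and 70.3 for SBT replicate 2 against them. Results that rest on P30 replicate 3 or SBT replicate 2 are therefore given with and without them. Of the CDC markers, Eng and Thy1 were present in every library (62.4 to 90.2 and 111 to 148 FPKM, respectively), and Ly6a was lower in P0 and P30 libraries (3.93 to 7.11 FPKM) than in SBT libraries (16.2 to 37.0 FPKM). FPKM are fragments per kilobase of gene scaled to the size of the library, a scale on which genes of different length can be compared. Ctgf, a target of TGF-β, was at 431 to 459 FPKM in P30 libraries and at 27.4, 70.9 and 30.7 FPKM in SBT replicates 1, 2 and 3, so that it was low in all SBT libraries and least so in replicate 2.

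Promoter sequences of some of the genes examined are shown first, since SREBP binds sterol regulatory elements. The factors NF-Y and E-box proteins bind beside them in many of these genes. The sequences are from RefSeq on GRCm38.p6, run 5′ to 3′ on the strand of the gene, start 250 bases before the RefSeq start site and end 1 to 89 bases before it, at the base before that site or, where the gene of the count table begins further upstream, at the base before that gene. Capitals mark TCACNCCA (a short form of the sterol regulatory element), CACGTG (the E-box) and CCAAT (the NF-Y box, which reads ATTGG on the other strand), each searched on both strands. Hmgcs1 (chr13:119690101-119690350, + strand), Srebf2 (chr15:82147019-82147180, + strand) and Insig1 (chr5:28071162-28071362, + strand) were genes of higher level in SBT libraries, and Fasn (chr11:120824548-120824797, - strand) did not pass the test.
Hmgcs1: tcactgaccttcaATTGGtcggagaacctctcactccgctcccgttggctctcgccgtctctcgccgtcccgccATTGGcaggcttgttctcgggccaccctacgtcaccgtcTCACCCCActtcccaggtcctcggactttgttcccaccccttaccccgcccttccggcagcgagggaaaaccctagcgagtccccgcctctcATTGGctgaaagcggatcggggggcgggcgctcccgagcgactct
Srebf2: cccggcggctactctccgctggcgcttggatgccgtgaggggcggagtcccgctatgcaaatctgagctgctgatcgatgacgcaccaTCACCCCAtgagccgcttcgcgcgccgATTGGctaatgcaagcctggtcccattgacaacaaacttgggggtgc
Insig1: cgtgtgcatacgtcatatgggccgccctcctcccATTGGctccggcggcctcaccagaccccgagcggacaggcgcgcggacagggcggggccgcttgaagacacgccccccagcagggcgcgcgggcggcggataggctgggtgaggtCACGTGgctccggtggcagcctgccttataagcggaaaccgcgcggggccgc
Fasn: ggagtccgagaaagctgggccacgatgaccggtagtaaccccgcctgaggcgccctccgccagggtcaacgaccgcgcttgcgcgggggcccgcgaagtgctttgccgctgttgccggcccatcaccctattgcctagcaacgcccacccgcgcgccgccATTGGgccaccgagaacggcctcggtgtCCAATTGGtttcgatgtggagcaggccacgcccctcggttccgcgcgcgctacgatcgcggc

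The element TCACCCCA began 137 bases before the start site of Hmgcs1 and 162 bases before that of Srebf2. Insig1 held no such match in this window but an E-box 101 bases before its start site. Fasn held 3 NF-Y boxes and no match to the other motifs, and its last pair of boxes overlapped. In RefSeq windows of 300 bases, which run 250 bases before to 50 after a start site, 22 of the 28 genes had an entry, with 28 windows in all. TCACNCCA was in 3 of the 28 windows (10.7%), those of Hmgcs1, Srebf2 and Msmo1, against 4.36% of all 32851 windows. Hmgcs1 and Srebf2, shown above, are thus among the few of these genes with a match and do not stand for the others. The longer form of this motif, with A before it and C after it, was in 0 of the 28 and in 0.234% of all windows. CACGTG was in 6 windows of 5 genes (Hsd17b7, Insig1, Dhcr7, Sc5d and Scap), that is 21.4% against 7.15% of all windows. CCAAT was in 20 windows of 19 genes, 71.4% against 37.4%. These matches are a description of the letters in these windows, and Fdps, Fdft1, Sqle, Stard4, Scd1 and Scd2 had no entry.

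SBT and P30 libraries were compared first, the comparison that the labels set up for the inhibitor. Most genes of cholesterol synthesis were higher in SBT libraries, together with the desaturases Scd1 and Scd2, whereas Fasn, Acaca and Acly, which build the fatty acid chain, did not pass the test. Differences were tested on the deposited counts with edgeR's quasi-likelihood test and Benjamini-Hochberg adjustment over all tested genes, and a gene was called at an adjusted p under 0.05. Of the 28 genes, 20 were called higher and 0 lower, beside 16% and 14% of all 13559 tested genes. At an unadjusted p under 0.05, edgeR and DESeq2 each gave 22 higher and 0 lower. The share of all genes at that unadjusted threshold was not computed. DESeq2 called 21 higher at an adjusted p under 0.05, beside 2295 of all 25160 genes fitted. The median log2 fold change was 1.17 over the 28 genes and 0.00 over all genes, 27 of the 28 had a positive value, and 16 differed by at least 1 on the log2 scale. In bulk RNA, fewer cells with a given level and less RNA per cell cannot be told apart.

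The number of calls depended on the libraries. Without SBT replicate 2, 25 of the 28 genes were higher (25.3% of all genes), and the remaining 3 were Acly, Acaca and Fasn. Without P30 replicate 3, 18 were higher (13.5% of all genes), and without both of these libraries all but Fasn were, 27 in number (32.6% of all genes). Leaving out a library that resembled another of its group gave fewer calls, with 6 and 8 without P30 replicates 1 and 2 (7.07% and 7.47% of all genes), and 10 and 10 without SBT replicates 1 and 3 (7.68% and 8.14%), so that the share over all genes fell as well. Pmvk, Mvd, Fdft1, Sqle and Scd1 were called in all 12 alternatives. None of the 28 genes changed direction in any of the 12. For 18 genes every SBT library was above every P30 library, beside 23.3% of all genes.

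The other 15 called genes lost their call when single libraries were left out. Mvk, Lss, Cyp51, Msmo1, Nsdhl, Ebp, Srebf1 and Srebf2 lost it without P30 replicate 1 or 2 and without SBT replicate 1 or 3, with edgeR adjusted p values up to 0.151 (Cyp51). Hmgcs1 and Idi1 lost it without each of these libraries and without P30 replicate 3, with values up to 0.0836 and 0.133. Scap lost it without P30 replicate 1 or 2 (up to 0.0553). Fdps, Insig1 and Scd2 lost it without P30 replicate 1 alone (0.0503, 0.0537 and 0.0547), and Dhcr7 without P30 replicate 2 alone (0.0524).

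**Figure D1:**
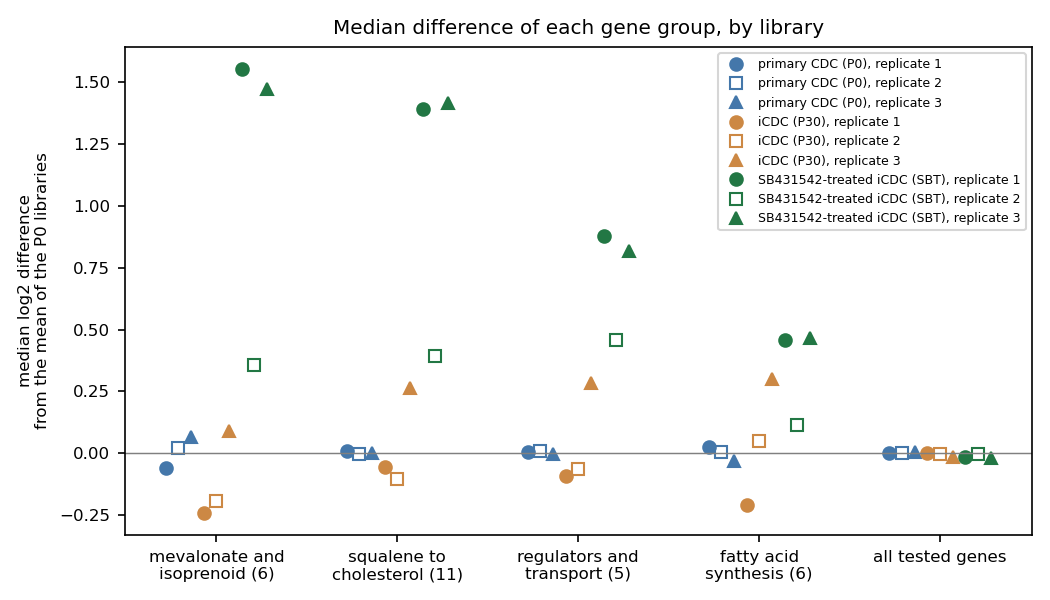
Median difference of each gene group from the mean of the P0 libraries (vertical axis, log2 scale, TMM-normalized counts) for 6 mevalonate and isoprenoid genes, 11 squalene to cholesterol genes, 5 regulators and transport genes, 6 fatty acid synthesis genes and all 14210 tested genes; each point is 1 library. SBT replicates 1 and 3 lie highest in all 4 groups, SBT replicate 2 lies below them, and all libraries lie within 0.02 of 0 for all tested genes.

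Over the 28 genes, the median difference from the mean of the P0 libraries was 1.28, 0.30 and 1.20 on the log2 scale in SBT replicates 1, 2 and 3, and -0.15, -0.13 and 0.26 in P30 replicates 1, 2 and 3. SBT replicate 2 was thus between the other SBT libraries and the P30 libraries. It was the lowest of the SBT libraries for 25 of the 28 genes (all but Scap, Acaca and Fasn), against 43.3% of all 14210 genes. P30 replicate 3 was the highest of the P30 libraries for 25 of the 28 genes (all but Sc5d, Dhcr7 and Scd1), against 40.1% of all genes. The summed level of the 28 genes was 395 to 399 FPKM in P0 libraries, 343 to 438 FPKM in P30 libraries and 481 to 863 FPKM in SBT libraries.

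The 6 genes of the mevalonate and isoprenoid steps were all called higher in SBT than in P30 libraries, with a median log2 fold change of 1.31. Hmgcs1, which condenses acetyl-CoA and acetoacetyl-CoA, was at 7.76, 7.59 and 8.05 FPKM in P30 replicates 1, 2 and 3 and at 26.7, 8.76 and 26.2 FPKM in SBT replicates 1, 2 and 3. SBT replicates 1 and 3 were thus 3.39 times the P30 mean and SBT replicate 2 only 1.12 times, although all SBT libraries were above all P30 libraries. The log2 fold change was 1.41 ± 0.37 (SE, edgeR adjusted p = 0.023), and 1.77 without SBT replicate 2. Mvk, mevalonate kinase, was at 7.24, 7.53 and 13.0 FPKM in P30 libraries and at 20.98, 14.4 and 19.8 FPKM in SBT libraries, again without overlap. Its log2 fold change was 1.004 ± 0.24 (edgeR adjusted p = 0.0184).

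Pmvk, which phosphorylates the product of Mvk, and Mvd, which decarboxylates the product of Pmvk, were among the genes called in every alternative. Pmvk was at 5.49, 6.14 and 7.86 FPKM in P30 libraries and at 17.1, 9.99 and 16.7 FPKM in SBT libraries (log2 fold change 1.18 ± 0.23, edgeR adjusted p = 0.00929). Mvd was at 5.25, 5.40 and 6.16 FPKM in P30 libraries and at 17.8, 9.23 and 16.1 FPKM in SBT libraries (1.37 ± 0.24, edgeR adjusted p = 0.00594). Idi1, the isopentenyl diphosphate isomerase, was the only gene of these 6 with SBT replicate 2 among the P30 libraries. It was at 2.98, 3.12 and 3.92 FPKM in P30 libraries and at 10.04, 3.32 and 10.3 FPKM in SBT libraries (1.25 ± 0.38, edgeR adjusted p = 0.0407). Without P30 replicate 3 the calls of Hmgcs1 and Idi1 were lost, with edgeR adjusted p = 0.0689 and 0.0806.

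Fdps, farnesyl diphosphate synthase, had the largest log2 fold change of the 28 genes, 3.12 ± 0.64 (edgeR adjusted p = 0.0101), but the lowest level in every library except SBT replicate 3, where Tm7sf2 was lower. It had 8, 6 and 7 counts in P30 libraries (0.0942, 0.0867 and 0.108 FPKM) and 77, 21 and 95 counts in SBT libraries (1.04, 0.237 and 1.25 FPKM). Counting error therefore weighs more on it than on any other of the 28 genes. The table holds 1 pseudogene of Fdps with 0 counts in all libraries. No counts were thus split to this pseudogene, but reads that match it and the gene alike may have been lost.

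**Figure D2:**
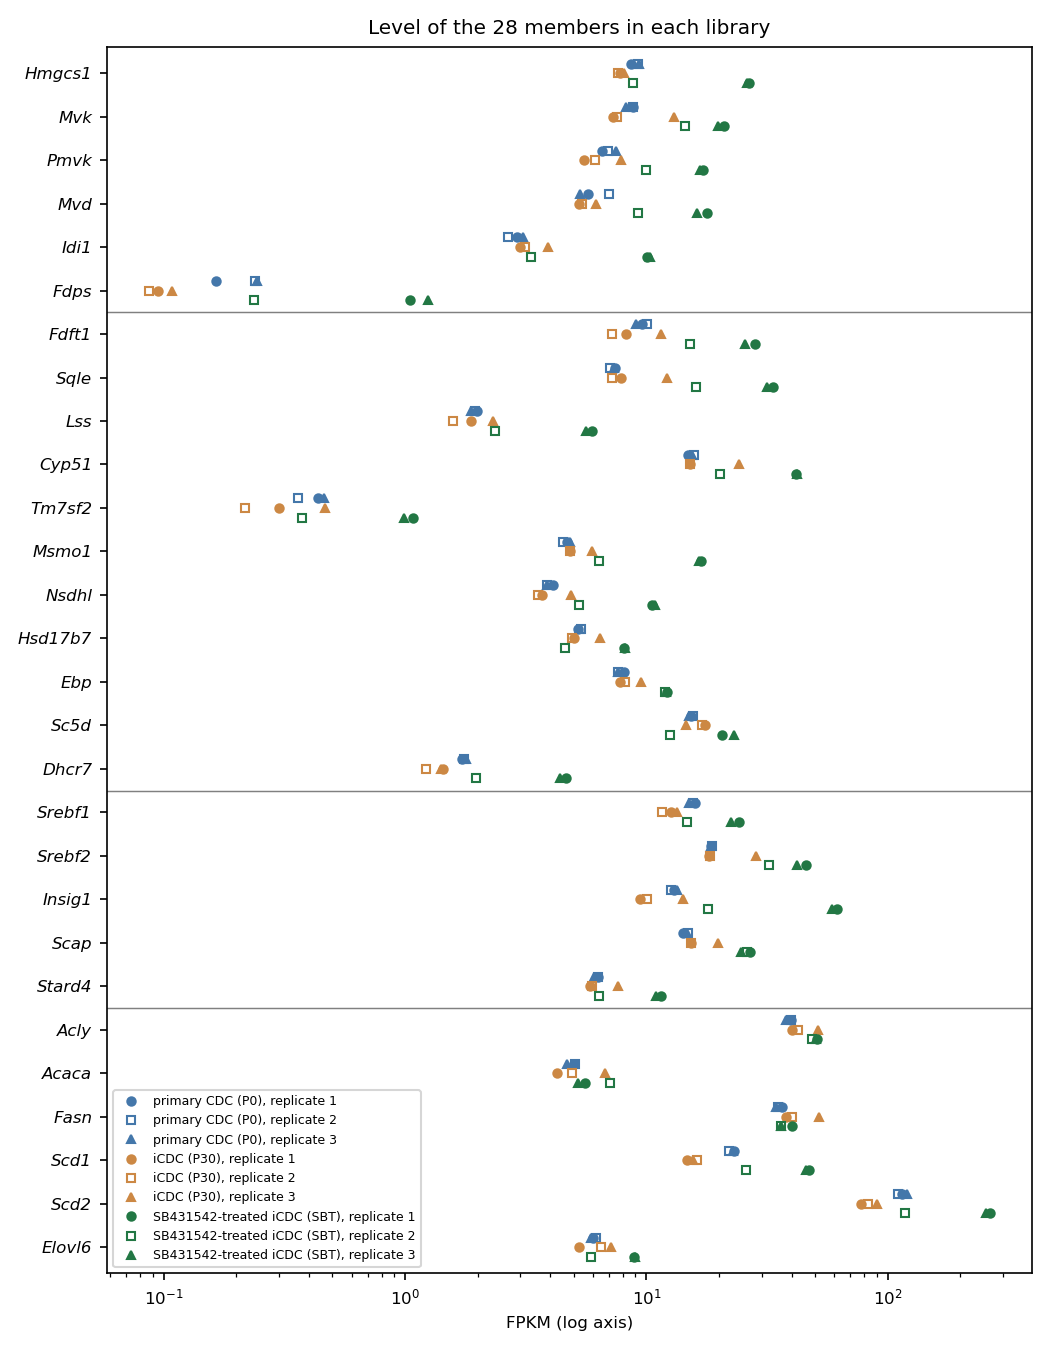
Level of each of the 28 genes in each of the 9 libraries (horizontal axis, FPKM on a log scale); colours mark the group, symbols the replicate, and lines separate the 4 gene groups. SBT replicates 1 and 3 lie above every P0 and P30 library for all genes but Acly, Acaca and Fasn. The share of all genes with this pattern was not computed, and SBT replicate 2 was set aside after seeing the data. SBT replicate 2 lies to their left for 25 genes, and it was the lowest SBT library for 43.3% of all 14210 genes.

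From squalene to cholesterol, 8 of the 11 genes were called higher in SBT than in P30 libraries, with a median log2 fold change of 1.29, and Tm7sf2, Hsd17b7 and Sc5d were not. Fdft1, squalene synthase, opens these steps. It was at 8.22, 7.22 and 11.5 FPKM in P30 libraries and at 28.2, 15.2 and 25.7 FPKM in SBT libraries (log2 fold change 1.37 ± 0.26, edgeR adjusted p = 0.00741). Its span shares 774 bases with Ctsb on the other strand, which was also higher in SBT libraries (0.75, edgeR adjusted p = 0.0341). The labels and the study's methods name different kits, so whether the strand was kept is not known. If it was not, reads of this stretch cannot be assigned to either gene. Sqle, squalene epoxidase, a step that limits the flux of the route, was at 7.81, 7.17 and 12.1 FPKM in P30 libraries and at 33.3, 16.1 and 31.6 FPKM in SBT libraries. All SBT libraries were above all P30 libraries, with a log2 fold change of 1.59 ± 0.30 (edgeR adjusted p = 0.00777).

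Lss closes the squalene chain to lanosterol, and Cyp51 removes the first methyl group of lanosterol. Lss was at 1.87, 1.57 and 2.31 FPKM in P30 libraries and at 5.95, 2.36 and 5.60 FPKM in SBT libraries (1.29 ± 0.33, edgeR adjusted p = 0.0214). Cyp51 was at 15.1, 15.1 and 24.1 FPKM in P30 libraries and at 41.5, 20.1 and 42.2 FPKM in SBT libraries (0.95 ± 0.30, edgeR adjusted p = 0.0448). For Cyp51, SBT replicate 2 lay below P30 replicate 3, and its span shares 166 bases with Akap9 on the other strand. Tm7sf2, a sterol reductase, was at 0.301, 0.218 and 0.465 FPKM in P30 libraries and at 1.08, 0.374 and 0.989 FPKM in SBT libraries and missed the threshold (1.32 ± 0.44, edgeR adjusted p = 0.054). It was called without SBT replicate 2 (1.67, edgeR adjusted p = 0.00117), and 9356 bases of its span lie within Vps51 on the same strand, so reads there cannot be told apart.

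Msmo1 and Nsdhl, which take part in removing the methyl groups at the 4 position of the sterol ring, rose with similar values. Msmo1 was at 4.83, 4.83 and 5.95 FPKM in P30 libraries and at 16.8, 6.33 and 16.6 FPKM in SBT libraries (1.36 ± 0.33, edgeR adjusted p = 0.0189). Nsdhl was at 3.68, 3.54 and 4.86 FPKM in P30 libraries and at 10.5, 5.27 and 10.8 FPKM in SBT libraries (1.15 ± 0.28, edgeR adjusted p = 0.018). Hsd17b7, the ketoreductase of the same complex, was at 4.998, 4.92 and 6.44 FPKM in P30 libraries but at 8.04, 4.58 and 8.16 FPKM in SBT libraries. SBT replicate 2 was below every P30 library, and the test was not passed (0.36 ± 0.23, edgeR adjusted p = 0.258), although it was without SBT replicate 2 (0.58, edgeR adjusted p = 0.00457).

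The last steps were carried by genes that behaved differently from each other. Ebp, the sterol isomerase, had 12.1, 11.9 and 12.1 FPKM in SBT libraries against 7.74, 8.14 and 9.47 FPKM in P30 libraries, so that SBT replicate 2 did not stand apart (0.52 ± 0.12, edgeR adjusted p = 0.0146). Sc5d, the sterol desaturase, was at 17.5, 16.95 and 14.5 FPKM in P30 libraries and at 20.6, 12.5 and 23.1 FPKM in SBT libraries. Its groups overlapped, with SBT replicate 2 the lowest of all 6 libraries (0.21 ± 0.21, edgeR adjusted p = 0.475), and it was called without that library (0.43, edgeR adjusted p = 0.0101). Dhcr7, which makes cholesterol from its last precursor, was at 1.44, 1.22 and 1.41 FPKM in P30 libraries and at 4.65, 1.96 and 4.39 FPKM in SBT libraries, without overlap (1.44 ± 0.31, edgeR adjusted p = 0.0118).

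Of the 5 regulators and carriers, 4 were called higher in SBT libraries, with a median log2 fold change of 0.72. Insig1, which retains SCAP and is itself a target of SREBP, was at 9.42, 10.01 and 14.2 FPKM in P30 libraries and at 61.3, 17.9 and 59.0 FPKM in SBT libraries. SBT replicates 1 and 3 were 5.37 times the P30 mean and SBT replicate 2 was 1.60 times. Its log2 fold change of 2.06 ± 0.42 (edgeR adjusted p = 0.0103) was larger than that of any of the 28 genes except Fdps. Srebf2 was at 18.1, 18.3 and 28.5 FPKM in P30 libraries and at 45.8, 32.1 and 41.9 FPKM in SBT libraries (0.90 ± 0.21, edgeR adjusted p = 0.0162). Srebf1 was at 12.6, 11.5 and 13.3 FPKM in P30 libraries and at 24.1, 14.8 and 22.4 FPKM in SBT libraries (0.72 ± 0.18, edgeR adjusted p = 0.0207), and its span shares 109 bases with Rai1 on the other strand. For both transcription factors all SBT libraries were above all P30 libraries.

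Scap, the escort of the SREBP precursors, differed from its partners in that SBT replicate 2 was not low. It was at 15.3, 15.2 and 19.8 FPKM in P30 libraries and at 27.0, 26.1 and 24.7 FPKM in SBT libraries (0.64 ± 0.13, edgeR adjusted p = 0.00943). Stard4, which carries cholesterol between membranes, was at 5.85, 5.96 and 7.65 FPKM in P30 libraries and at 11.5, 6.33 and 10.98 FPKM in SBT libraries. SBT replicate 2 lay among the P30 libraries, and Stard4 missed the threshold (0.58 ± 0.23, edgeR adjusted p = 0.0858) but passed it without that library (0.80, edgeR adjusted p = 0.000663).

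Among the 6 genes of fatty acid synthesis only the desaturases Scd1 and Scd2 were called higher in SBT than in P30 libraries, and the median log2 fold change was 0.26. Scd2, a stearoyl-CoA desaturase, had the highest level of the 28 genes in every library. It was at 77.2, 82.7 and 90.2 FPKM in P30 libraries and at 265, 118 and 255 FPKM in SBT libraries (1.36 ± 0.28, edgeR adjusted p = 0.0108). Scd1, its close paralog, was at 14.7, 16.3 and 15.5 FPKM in P30 libraries and at 47.3, 25.9 and 46.0 FPKM in SBT libraries (1.37 ± 0.22, edgeR adjusted p = 0.00406). Neither gene had overlapping groups, and the ratio of Scd2 to Scd1 was 5.08 to 5.81 in P30 libraries and 4.54 to 5.60 in SBT libraries. Reads that match both paralogs may have been lost or split between them.

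Acly, Acaca and Fasn supply acetyl-CoA, form malonyl-CoA and build palmitate. Acly was at 40.2, 42.4 and 51.2 FPKM in P30 libraries and at 50.6, 48.7 and 50.5 FPKM in SBT libraries (0.18 ± 0.12, edgeR adjusted p = 0.299). Acaca was at 4.26, 4.91 and 6.76 FPKM in P30 libraries and at 5.54, 7.03 and 5.22 FPKM in SBT libraries (0.17 ± 0.19, edgeR adjusted p = 0.503). Fasn was at 38.0, 40.2 and 51.9 FPKM in P30 libraries and at 40.0, 36.1 and 36.1 FPKM in SBT libraries (-0.20 ± 0.14, edgeR adjusted p = 0.318). In all 3 genes the groups overlapped and P30 replicate 3 was the highest P30 library. Acaca differed from the rest in that SBT replicate 2 was its highest library. Without both P30 replicate 3 and SBT replicate 2, Acly and Acaca were called higher and Fasn was not. Elovl6, which elongates palmitate, was at 5.25, 6.51 and 7.13 FPKM in P30 libraries and at 8.88, 5.86 and 8.95 FPKM in SBT libraries. It was called only when SBT replicate 2 was left out, alone or with P30 replicate 3 (0.34 ± 0.19, edgeR adjusted p = 0.198, and 0.51, edgeR adjusted p = 0.00777, without SBT replicate 2 alone).

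**Figure D3:**
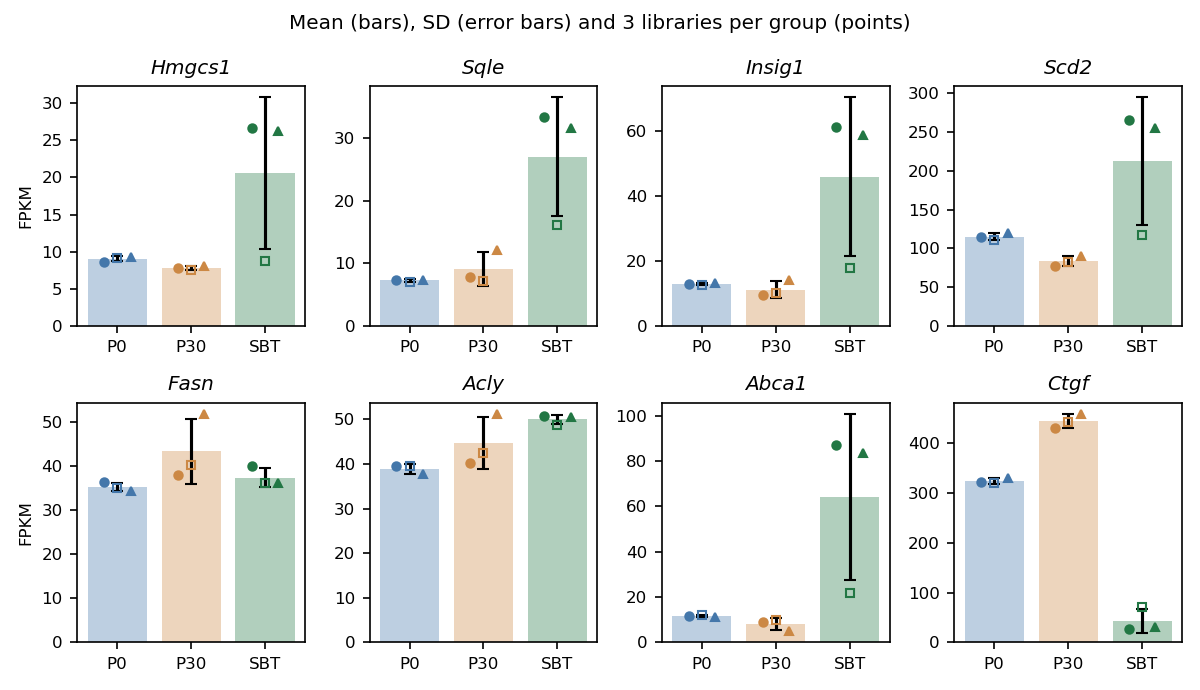
Level in FPKM (vertical axes, each starting at 0) of 6 of the 28 genes and of Abca1 and Ctgf in P0, P30 and SBT libraries; bars are means, error bars SD over 3 libraries, and points the libraries (circle replicate 1, open square replicate 2, triangle replicate 3). Hmgcs1, Sqle, Insig1, Scd2 and Abca1 are highest in SBT replicates 1 and 3, and SBT replicate 2 lies between these and the other groups for Sqle, Insig1 and Abca1 but within the range of P0 libraries for Hmgcs1 and Scd2, whereas Fasn overlaps between P30 and SBT libraries.

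P30 and P0 libraries were then compared, the question of what changed on immortalization and passage. Here the P30 libraries are those of the comparison above, so the values of both comparisons share them. Of the 28 genes, 0 were called higher and 6 lower in P30 libraries, beside 7.21% and 9.21% of all 13752 tested genes. At an unadjusted p under 0.05, edgeR and DESeq2 each gave 1 higher (Fasn) and 6 lower, again without a share over all genes. The median log2 fold change was 0.04, with 16 positive values. The 6 lower genes were Scd1, Scd2, Srebf1, Hmgcs1, Dhcr7 and Fdps.

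The desaturases had the clearest difference. Scd1 was at 23.2, 22.1 and 22.8 FPKM in P0 libraries, all above the P30 libraries (log2 fold change -0.56 ± 0.06, edgeR adjusted p = 0.000499). Scd2 was at 114.9, 110.1 and 119.8 FPKM in P0 libraries, again all above the P30 libraries (-0.48 ± 0.07, edgeR adjusted p = 0.00298). Srebf1 was at 15.9, 15.5 and 15.1 FPKM in P0 libraries (-0.33 ± 0.07, edgeR adjusted p = 0.0137). The differences of Hmgcs1 (-0.23 ± 0.07, edgeR adjusted p = 0.0466) and Dhcr7 (-0.38 ± 0.11, edgeR adjusted p = 0.0471) were just past the threshold, with P0 levels of 8.64 to 9.32 and 1.72 to 1.79 FPKM. Fdps had 17, 20 and 24 counts in P0 libraries (-1.16 ± 0.32, edgeR adjusted p = 0.0401).

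P30 replicate 3 weighed on this comparison. Without it, 10 genes were lower and 2 higher (16.2% and 15.5% of all genes), the median log2 fold change was -0.13, and 8 values were positive. The lower genes were then the same 6 with Insig1, Fdft1, Mvk and Tm7sf2, and the higher ones were Fasn and Sc5d. Insig1, for example, was at 13.1, 12.7 and 13.4 FPKM in P0 libraries, and its log2 fold change was -0.24 (edgeR adjusted p = 0.266) with and -0.44 (edgeR adjusted p = 7.29e-05) without P30 replicate 3. Mvk changed from 0.09 (edgeR adjusted p = 0.804) to -0.23 (edgeR adjusted p = 0.0296), and Fasn from 0.28 (edgeR adjusted p = 0.108) to 0.14 (edgeR adjusted p = 0.0174). Of the other libraries, leaving out each P0 replicate gave 2, 2 and 2 lower genes (4.92%, 4.82% and 4.95% of all genes), and leaving out P30 replicate 1 or 2 gave 3 and 3 (8.22% and 7.52%). The calls of Hmgcs1, Dhcr7 and Fdps were lost in each of these 5 cases, that of Srebf1 when any 1 P0 library was left out, and those of Scd1 and Scd2 in none of them. With all 9 libraries in the fit 0 genes were lower.

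SBT libraries were last set against P0 libraries. This comparison shares its SBT libraries with the first and its P0 libraries with the comparison of P30 and P0, so it is independent of neither. Of the 28 genes, 20 were called higher and 0 lower, beside 17.9% and 17% of all 14015 tested genes, and edgeR and DESeq2 each gave 24 higher and 0 lower at an unadjusted p under 0.05. For the counts at an unadjusted p the share of all genes was not computed. DESeq2 called 21 higher at an adjusted p under 0.05, beside 2586 of all 25575 genes fitted. All 28 log2 fold changes were positive, with a median of 1.07. Without SBT replicate 2 all 28 were called higher (31.7% of all genes). Leaving out P0 replicates 1, 2 and 3 gave 9, 9 and 9 calls (8.64%, 8.96% and 8.73% of all genes), and leaving out SBT replicates 1 and 3 gave 10 and 11 (11.3% and 12.1%). Mvk, Pmvk, Mvd, Fdft1, Sqle, Ebp, Srebf2, Scap and Acly were called in all 11 alternatives. Hmgcs1, Idi1, Fdps, Lss, Msmo1, Dhcr7, Insig1, Scd1 and Scd2 lost their call when any 1 P0 library, SBT replicate 1 or SBT replicate 3 was left out, with edgeR adjusted p values up to 0.146 (Hmgcs1). Cyp51 lost it when any 1 P0 library was left out, and Nsdhl also without SBT replicate 1 (up to 0.0611 and 0.0615). With the replicate number as a block the calls of Hmgcs1, Fdps and Scd2 were lost.

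By role, 6 of 6 mevalonate and isoprenoid genes, 8 of 11 genes from squalene to cholesterol, 3 of 5 regulators and carriers and 3 of 6 fatty acid genes were higher in SBT than in P0 libraries, with median log2 fold changes of 1.23, 1.17, 0.84 and 0.38. Sqle rose from 7.37, 7.06 and 7.30 FPKM in P0 libraries (1.91 ± 0.26, edgeR adjusted p = 0.00245), and Insig1 by 1.83 ± 0.42 on the log2 scale (edgeR adjusted p = 0.0155). Scap, at 14.1, 14.8 and 14.8 FPKM in P0 libraries, had the lowest adjusted p of the 28 genes (0.84 ± 0.07, edgeR adjusted p = 0.000365). Acly, at 39.6, 39.6 and 37.7 FPKM in P0 libraries, passed here (0.37 ± 0.07, edgeR adjusted p = 0.00665), and Scd1 and Scd2 differed by 0.82 and 0.90. Srebf1 did not pass the test against P0 libraries (0.41 ± 0.17, edgeR adjusted p = 0.111), nor did Fasn, which was at 36.4, 34.9 and 34.5 FPKM in P0 libraries (0.10 ± 0.08, edgeR adjusted p = 0.375).

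**Figure D4:**
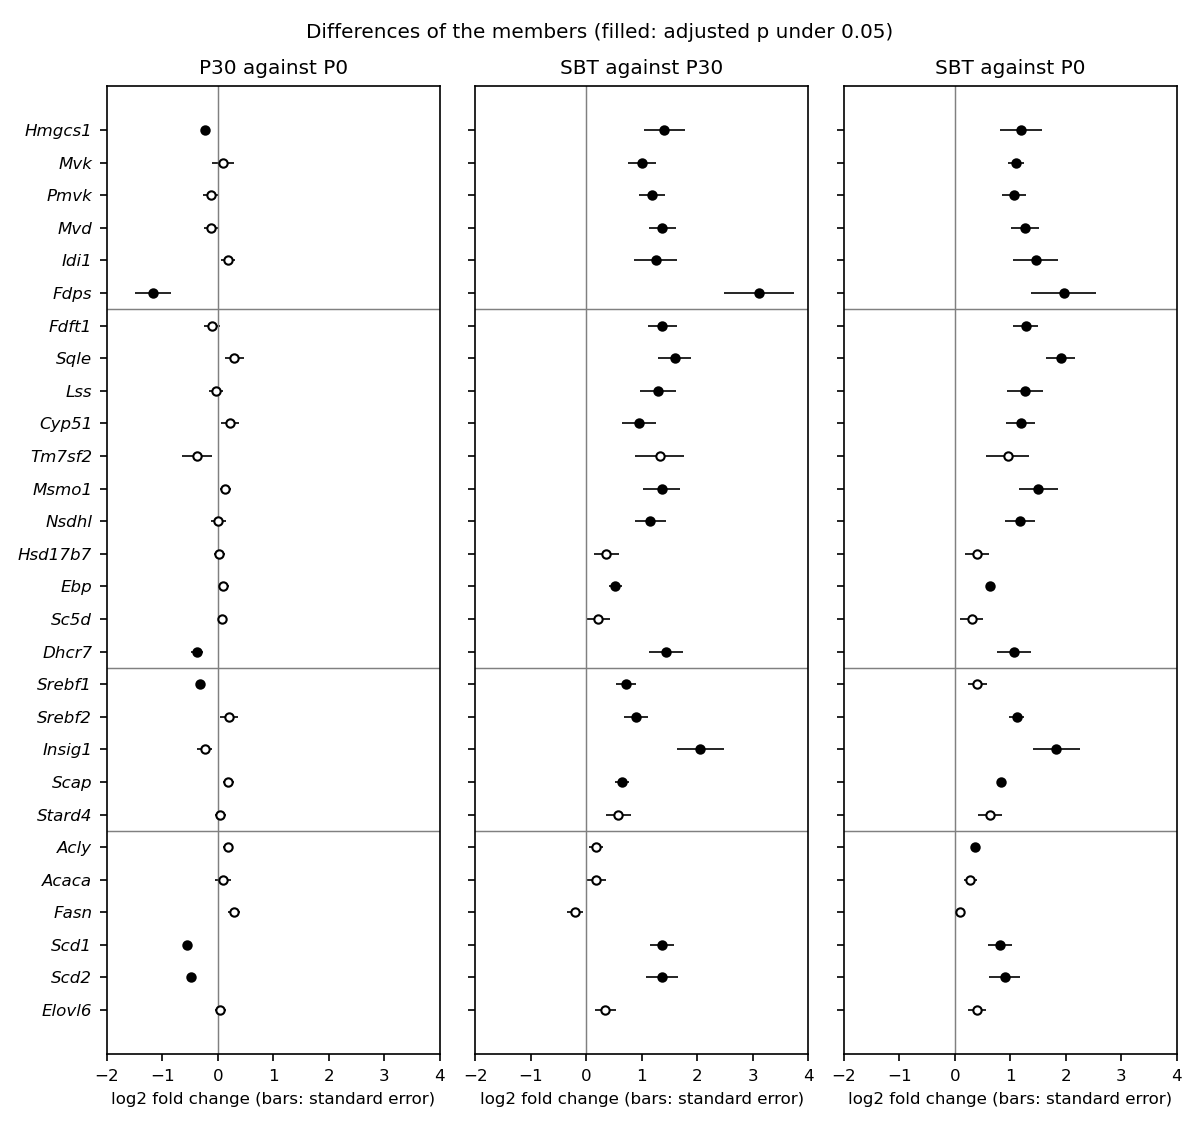
Log2 fold change (horizontal axes, bars give the standard error) of the 28 genes in P30 against P0, SBT against P30 and SBT against P0 libraries; filled points have an edgeR adjusted p under 0.05, and lines separate the 4 gene groups. In P30 against P0 6 filled points lie below 0, and in each comparison of SBT libraries 20 filled points lie above 0.

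Genes next to the route were examined in 6 further lists with 69 genes, and counts are for SBT against P30 libraries. Of their 61 tested genes, 17 were higher (27.9%) and 13 lower (21.3%), beside 16% and 14% of all genes. Of 10 genes of other isoprenoid and sterol branches, 1 was higher (Dhdds) and 5 lower (Fdx1, Pdss1, Ggps1, Nus1 and Icmt). Fdx1, the ferredoxin of mitochondrial sterol hydroxylases, differed by -0.79 (edgeR adjusted p = 0.0393) and Pdss1, which makes the side chain of coenzyme Q, by -0.73 (edgeR adjusted p = 0.0482). Of 8 tested genes of SREBP processing, 2 were higher and 2 lower. Mbtps1, the site-1 protease that cuts SREBP in the Golgi, rose by 0.88 (edgeR adjusted p = 0.0053) and Insig2, the second INSIG gene, by 0.72 (edgeR adjusted p = 0.017). Sec24a (-0.75, edgeR adjusted p = 0.008) and Sec23a (-0.47, edgeR adjusted p = 0.042), coat proteins of vesicles that leave the endoplasmic reticulum, were lower.

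Of 12 genes of sterol efflux, storage and the nuclear receptor LXR, 5 were higher and 1 lower. Abca1, the pump that exports cholesterol and is a target of LXR, was at 11.8, 11.9 and 11.3 FPKM in P0 libraries, at 9.02, 10.1 and 5.08 FPKM in P30 libraries and at 87.1, 21.9 and 83.5 FPKM in SBT libraries. SBT replicate 2 was again the lowest SBT library but above all others, and the log2 fold change was 3.00 (edgeR adjusted p = 0.0053). Nr1h3, which encodes LXRα, was at 1.09 to 1.29 FPKM in P30 libraries and at 2.88, 2.02 and 2.93 FPKM in SBT libraries (1.15, edgeR adjusted p = 0.008). Nr1h2, Mylip and Npc2 were the other higher genes and Soat1, which esterifies cholesterol for storage, the lower one (-0.36, edgeR adjusted p = 0.025).

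Of 8 tested genes of fatty acid supply, 2 were higher and 1 lower in SBT than in P30 libraries. Acss2, an acetyl-CoA synthetase, rose by 1.02 (edgeR adjusted p = 0.0207) and Idh1 by 0.69 (edgeR adjusted p = 0.0258), whereas Me1, the malic enzyme that supplies NADPH, fell by 0.53 on the log2 scale (edgeR adjusted p = 0.02). Of 8 tested genes of elongation and desaturation, 3 were higher and 2 lower. Fads2, a desaturase of polyunsaturated fatty acids, was at 33.9, 36.0 and 49.1 FPKM in P30 libraries and at 112, 67.4 and 108 FPKM in SBT libraries (1.28, edgeR adjusted p = 0.0054), and Fads1 differed by 0.98 (edgeR adjusted p = 0.0058). Tecr was the other higher gene, and Elovl4 (-1.06, edgeR adjusted p = 0.0038) and Hsd17b12 were lower. Of 15 tested genes of acyl-CoA and glycerolipid synthesis, 4 were higher (Lpin1, Acsl3, Gpam and Pcyt2) and 2 lower (Lpin3 and Plin2), with Lpin1, a phosphatidate phosphatase, at 1.53 (edgeR adjusted p = 0.0028). Dhdds, Ggps1, Nus1, Icmt, Insig2, Nr1h2, Mylip, Npc2, Tecr, Hsd17b12, Acsl3, Gpam and Pcyt2 are named because they passed the test and were chosen after their values were seen.

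Many of these calls also rested on single libraries. Of the 30 calls, 11 were made in all 12 alternatives (Mbtps1, Sec24a, Nr1h3, Abca1, Elovl4, Fads1, Fads2, Hsd17b12, Lpin1, Lpin3 and Plin2). The other 19 were lost in some, with 19, 17, 18 and 18 lost without P30 replicate 1, P30 replicate 2, SBT replicate 1 and SBT replicate 3, 9 without P30 replicate 3, 9 with the replicate number as a block and 5 without a filter. Of the genes given with values, Fdx1, Pdss1, Sec23a and Soat1 lost their call with edgeR adjusted p values up to 0.14, 0.144, 0.14 and 0.128, and Insig2, Acss2, Idh1 and Me1 with values up to 0.065, 0.0815, 0.0894 and 0.0941.

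Lists of proliferation genes and TGF-β targets were set beside these results. Of 12 proliferation genes, 4 were lower and 0 higher in SBT than in P30 libraries, beside 14% and 16% of all genes. Of the same 12, 9 were lower without SBT replicate 2, where 3464 of all 13955 genes were. Without P30 replicate 3, 0 were lower, beside 1663 of all 14016 genes. The 4 calls were also lost without P30 replicate 1 or 2 and without SBT replicate 1 or 3. Their median difference from P0 libraries was -0.40, 0.25 and -0.35 on the log2 scale in SBT replicates 1, 2 and 3 and 0.18, 0.21 and 0.38 in P30 replicates 1, 2 and 3. Of 9 tested TGF-β targets, 5 were lower and 1 higher (Tgfbi, named after its values were seen), beside the same 14% and 16% of all genes. The lower ones included Ctgf (-3.36, edgeR adjusted p = 0.001) and Acta2 (-2.56, edgeR adjusted p = 0.0058) but not Tagln (-1.71, edgeR adjusted p = 0.072). The median difference of the TGF-β targets from P0 libraries was -1.85, -1.06 and -2.25 in SBT replicates 1, 2 and 3. The summed level of these targets was 2937 to 3020 FPKM in P0 libraries and 1023, 994 and 944 FPKM in SBT replicates 1, 2 and 3. By the sum, the decrease was thus smallest in SBT replicate 1. In SBT replicate 2, 25 of the 28 genes had their lowest SBT level. By the medians only, it was also the SBT library with the smallest decrease of TGF-β targets and with the proliferation genes above P0. The part of either in the levels of the 28 genes was not tested.

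Lists of cell type markers were examined in the same libraries. The summed level of 5 epicardial and mesothelial markers was 20.2 to 21.2 FPKM in P0, 19.4 to 25.8 FPKM in P30 and 26.1 to 45.1 FPKM in SBT libraries, and that of 4 smooth muscle markers 721 to 744, 817 to 1922 and 139 to 331 FPKM. The smooth muscle sum was mostly that of Acta2, also among the TGF-β targets, which alone was at 714 to 737, 812 to 1898 and 137 to 322 FPKM. The highest P30 value of both was that of replicate 3. Between SBT and P30 libraries, 3 of 4 tested epicardial markers were higher (Wt1, Tcf21 and Upk3b) and 2 of 4 smooth muscle markers lower (Acta2 and Myh11). For all marker counts of this comparison, 16% of all genes were higher and 14% lower. Of the 6 adipocyte markers, whose cells make much fat, Adipoq, Plin1 and Cidec had at most 0.0534 FPKM in any library, and the sum was 5.06 to 5.32, 2.81 to 4.14 and 3.71 to 7.79 FPKM. Of the 3 tested adipocyte markers, Lpl was higher in SBT than in P30 libraries and 0 were lower. The 5 endothelial markers summed to at most 0.165 FPKM and the 5 cardiomyocyte markers to at most 1.71 FPKM. The 5 haematopoietic and macrophage markers summed to 7.12 to 10.7 FPKM, with Adgre1 at 0 and Ptprc at most 0.011 FPKM. The 5 CDC markers summed to 619 to 620, 707 to 733 and 488 to 521 FPKM, with 1 higher (Ly6a) and 2 lower (Cd44 and Itgb1) in SBT than in P30 libraries. Tnnt2 and Lyz2 were the cardiomyocyte and macrophage markers that were lower, and the call of Lyz2 was lost without any 1 P30 library or SBT replicate 1 (edgeR adjusted p up to 0.107). Of these markers, those other than Acta2 and Ly6a were named after their values were seen. Whether the smooth muscle or epicardial markers bear on the 28 genes was not tested.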

How the data were processed

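RNA was sequenced from 9 libraries in 3 groups of 3. According to the submitters' processing notes, the aligners TopHat2 2.0.9 and Bowtie2 2.0.6 and the build mm9 belong to the processing, with no role given, whereas the coordinates in the table are those of GRCm38, since 25 of the 28 genes had the same start and end as in GENCODE M21. The counting program is not given in the sources used here. The labels name a TruSeq kit and the study's methods other kits. The authors deposited raw read counts per gene and, separately, FPKM values per gene. The authors' fold changes, p-values and group means, deposited in the same table, were not used. The 28 genes, the gene lists and the tests were chosen with earlier results of these data known.

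Counts were normalized by TMM and tested with edgeR 4.0.16 in R 4.3.3 (filterByExpr with a minimum count of 10 and a minimum total of 15, quasi-likelihood test, Benjamini-Hochberg adjustment over all tested genes, only the libraries of the 2 groups compared). All 28 genes passed the filter in all 3 comparisons. The test was checked on simulated data with the same spread for all genes and no library that stood apart. This check therefore does not cover the effect of P30 replicate 3 or SBT replicate 2. Beyond the 28 genes, the text names from each list and comparison up to 2 genes with the largest absolute log2 fold change among those that passed the test and whose group of higher level reached a mean FPKM of 1, and the check genes Ctgf, Acta2, Tagln, Eng, Thy1 and Ly6a; 1 further check gene is not reported here. Ctsb, Akap9, Vps51 and Rai1 are named for their overlap only. Alternatives were DESeq2 1.42.0, RLE size factors, no filter, all 9 libraries, the replicate number as a block and leaving out each library. Leaving out P30 replicate 3 and SBT replicate 2 together was chosen after seeing the data. Replicate numbers are not said to pair the libraries, so the main fit had no block. Correlations of deviations from the group mean between libraries of the same number ranged from -0.21 to 0.03. They cannot show whether such libraries were paired, since P30 replicate 3 and SBT replicate 2 weigh heavily on these deviations. Tabulation used pandas 2.3.3 and numpy 2.4.6 under python 3.11.15, and plots used matplotlib 3.10.9.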

Additional observations from a re-analysis of the deposited data

How the results depend on the processing

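For SBT against P30 and SBT against P0 libraries, no alternative turned the direction of any of the 28 genes. In SBT against P30, from 6 to 27 genes were higher when libraries were left out (20 with all), beside 7.07% to 32.6% of all genes. DESeq2 gave 21 (2295 of all 25160 genes fitted) and RLE size factors 20 (2146 of 13559). Without a filter 22 were higher (2577 of 25160) and with all 9 libraries 22 (2971 of 14210). With the replicate number as a block 21 were higher (1638 of 13559). In SBT against P0, from 9 to 28 were higher when a library was left out (20 with all), beside 8.64% to 31.7% of all genes. With the replicate block 17 were higher, beside 1953 of 14015 genes. Libraries of the same number are not known to be paired. In P30 against P0, 0 to 2 genes were higher and 2 to 10 lower when a library was left out (0 and 6 with all). Over all tested genes, 360 to 2180 were then higher and 676 to 2287 lower. There 2 were higher and 4 lower without a filter, beside 1282 and 1806 of 25105 genes. With RLE size factors 4 were lower (1237 of 13752 genes) and with DESeq2 3 (1285 of 25105 fitted). With all 9 libraries 0 were lower (463 of 14210) and with the replicate block 3 (1069 of 13752).

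Small differences of P30 against P0 changed sign when a library was left out, with log2 fold changes from -0.23 to 0.24 for Mvk, -0.19 to 0.0038 for Mvd, -0.31 to 0.025 for Fdft1, -0.17 to 0.096 for Lss, -0.025 to 0.34 for Cyp51, -0.14 to 0.092 for Nsdhl, -0.097 to 0.099 for Hsd17b7, -0.0404 to 0.32 for Srebf2, -0.081 to 0.12 for Stard4, -0.11 to 0.23 for Acaca, -0.051 to 0.17 for Elovl6, -0.18 to 0.30 for Acat2, -0.27 to 0.013 for Fads2, -0.13 to 0.047 for Nr1h3 and -0.39 to 0.45 for Tagln. Nsdhl was at -0.00682 without a filter. In SBT against P0 the same held for Lipa (-0.0359 to 0.22) and Thy1 (-0.10 to 0.11). None of these was past the threshold with all libraries, and the cause was not tested. Depth limits mainly Fdps and Tm7sf2, which had 6 to 95 and 20 to 106 counts per library.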

Other observations

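Of the 15 tested genes of acyl-CoA and glycerolipid synthesis, Plin2 and Dgat2 were higher and Lpin1 was lower in P30 than in P0 libraries, beside 7.21% and 9.21% of all genes, and these 3 calls were made in all 11 alternatives. Plin2, which coats lipid droplets, was at 43.1, 42.9 and 42.5 FPKM in P0 libraries and at 81.9, 79.6 and 62.4 FPKM in P30 libraries, without overlap (log2 fold change 0.79, edgeR adjusted p = 0.0011). Dgat2, which makes triglyceride, was at 2.65, 2.75 and 2.49 FPKM in P0 libraries and at 4.27, 4.48 and 5.13 FPKM in P30 libraries (0.80, edgeR adjusted p = 0.0017). Lpin1, which acts just before Dgat2, went the other way and was at 0.818, 0.910 and 0.873 FPKM in P0 libraries against 0.528, 0.447 and 0.465 FPKM in P30 libraries (-0.86, edgeR adjusted p = 0.0024). In SBT libraries Plin2 was at 48.3, 46.8 and 46.5 FPKM, lower than in P30 libraries (-0.65, edgeR adjusted p = 0.0097), and SBT replicate 2 did not stand apart. Between SBT and P0 libraries, 9 of the 15 were higher and 1 lower, beside 17.9% and 17% of all genes. Of the higher ones, Acsl3, Agpat2, Lpin1, Lpin2 and Pcyt2 lost their call in 5, 3, 6, 7 and 5 of the 11 alternatives. Their edgeR adjusted p values were then up to 0.136 (Lpin2). Agpat2 and Lpin2 are named after their values were seen.

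Of the 45 tested genes of the other 5 lists, 4 were higher (8.89%) and 6 lower (13.3%) in P30 than in P0 libraries, beside the 7.21% and 9.21% of all genes. They were 0 higher and 1 lower of 10 isoprenoid and sterol branch genes, 0 and 2 of 8 SREBP processing genes, 1 and 3 of 11 efflux and storage genes, 0 and 0 of 8 fatty acid supply genes and 3 and 0 of 8 elongation and desaturation genes. Among them Sec23a (-0.59, edgeR adjusted p = 0.0015), Soat1 (0.27, edgeR adjusted p = 0.0143), Lipa (-0.26, edgeR adjusted p = 0.0475), a lysosomal lipase, and Fads3 (0.48, edgeR adjusted p = 0.0099) passed the test. Sec23a was called in all 11 alternatives. Soat1 lost its call with all 9 libraries and without any 1 P0 library (edgeR adjusted p up to 0.0891), Lipa in 8 of the 11 alternatives (up to 0.333) and Fads3 without P0 replicate 1 or 3 (up to 0.0544). Between SBT and P0 libraries, Acat2, which joins acetyl-CoA units (0.92, edgeR adjusted p = 0.0118), and Acacb, an acetyl-CoA carboxylase (1.05, edgeR adjusted p = 0.0079), were higher, and Lpin3 was lower (-0.94, edgeR adjusted p = 0.0021), of which Acat2 lost its call without P0 replicate 1 or 3 (edgeR adjusted p up to 0.0547).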
